A study of Mus musculus with 6 samples.

Results

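The 38 genes described here encode proteins that fold, translocate and degrade other proteins at the endoplasmic reticulum (ER). They were taken by gene symbol from the first column of the expression table, and all 38 were found among its 24421 rows. By role, 16 encode chaperones, folding enzymes and glycan quality-control proteins, 8 the translocon and the proteins attached to it, 10 the degradation machinery, and 4 the sensors of ER stress together with the transcription factor Xbp1.

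RNA came from primary mouse proximal tubular epithelial cells, which line the stretch of the kidney tubule next to the glomerulus, cultured in DMEM/F-12 medium with serum. There were 3 libraries labelled Atg5KO and 3 labelled Atg5F/F (the floxed allele), called KO-labelled and F/F-labelled libraries below. The cells of all 6 libraries had been given 20 µM erastin2 for 24 h; erastin2 inhibits the cystine-glutamate antiporter, lowers glutathione and can set off ferroptosis. Untreated cells were not analysed here, so a genotype difference already there before the drug and a difference in the response to it cannot be told apart. The labels name neither the Cre driver or deleted exons nor the age or number of mice, and they do not say whether replicates are separate cultures. The p-values therefore measure the spread among these 6 samples alone, part or all of which may be technical.

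Proteins destined for secretion or membranes enter the ER through the Sec61 channel, and inside it the Hsp70 chaperone BiP, the Hsp90 chaperone GRP94, the lectins calnexin and calreticulin and the protein disulfide isomerases bring them to their folded state. Proteins that fail are drawn back through membrane complexes built around the ubiquitin ligase HRD1 and destroyed by the proteasome. When unfolded proteins accumulate, the membrane sensors IRE1, ATF6 and PERK start the unfolded protein response: IRE1 splices Xbp1 messenger RNA, ATF6 is cleaved into a transcription factor, and PERK phosphorylates eIF2alpha and slows translation. Proximal tubule cells carry a heavy load of membrane transporters and endocytic receptors that mature in this compartment.

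The FPKM values (fragments per kilobase of gene, scaled to the size of the library) implied 16922491 to 19724355 reads in KO-labelled and 15528454 to 30004933 in F/F-labelled libraries. Atg5, the targeted gene, had 13.3, 11.5 and 12.7 FPKM in KO-labelled and 8.76, 8.95 and 7.94 FPKM in F/F-labelled libraries. It was therefore higher under the knockout label (log2 fold change 0.50, SE 0.0663, limma adjusted p = 5.5e-04); a whole-gene value cannot show a missing exon, and every direction below rests on the labels. Of 15 proximal tubule markers, 7 reached the level needed for testing, of which 5 were lower and 1 higher, with a summed level of 355 to 384 FPKM in KO-labelled and 442 to 467 FPKM in F/F-labelled libraries, and Slc22a8 was at 0 in all 6. The other 7, among them Slc34a1, Slc5a2, Cubn and Anpep, stayed at or below 0.509 FPKM. Of 10 fibroblast and pericyte markers, the 3 that could be tested (Acta2, Tagln and Postn) were all higher, with a summed level of 238 to 296 FPKM in KO-labelled and 66.6 to 73.3 FPKM in F/F-labelled libraries. Col1a1, Col1a2, Col3a1, Pdgfra, Pdgfrb, Dcn and Lum stayed at or below 0.277 FPKM. Of the 10 distal tubule and collecting duct markers 0 could be tested, of 8 endothelial markers 1 (Kdr, lower), of 8 leukocyte markers 2 (0 called), and of 5 podocyte markers 3 (1 higher, 1 lower). The part of these shifts in the results below was not tested, and in bulk RNA fewer cells of a type and less RNA per cell cannot be told apart.

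Of the 16 folding genes among the members, 13 were lower in KO-labelled libraries. For the translocon members this number was 2 of 8, and for the tested degradation members 4 of 9. In these 3 roles 0 members were called higher. The fall was not shared by the other folding genes listed: of 39 tested, 10 were lower and 8 higher. That list also held genes of the ER membrane complex, which inserts membrane proteins. Of these, Emc1 and Emc7 were lower, Emc3 was higher, and Emc2, Emc4 and Emc10 were not called. Of the 37 members that could be tested (at least 1 FPKM in at least 3 libraries), 20 were lower and 1 was higher, and the test called no difference for 16 (limma with Benjamini-Hochberg adjustment over all genes, adjusted p under 0.05). The calls thus covered 56.8% of the members, beside 39.2% of all 11559 tested genes; 54.1% of members were lower, beside 17.9% of all genes, and 1 member was higher, beside 21.3%. Among the 7140 genes with a mean of at least 10 FPKM in a group, 43.9% were called and 21.2% were lower. The median log2 fold change was -0.12 over the members and 0.02 over all tested genes, on the log2(FPKM + 1) scale. All KO-labelled values lay below all F/F-labelled values for 21 members and above them for 5, where the whole table gave 23.2% and 28.7% of genes, or 51.9% in either direction.

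**Figure D1:**
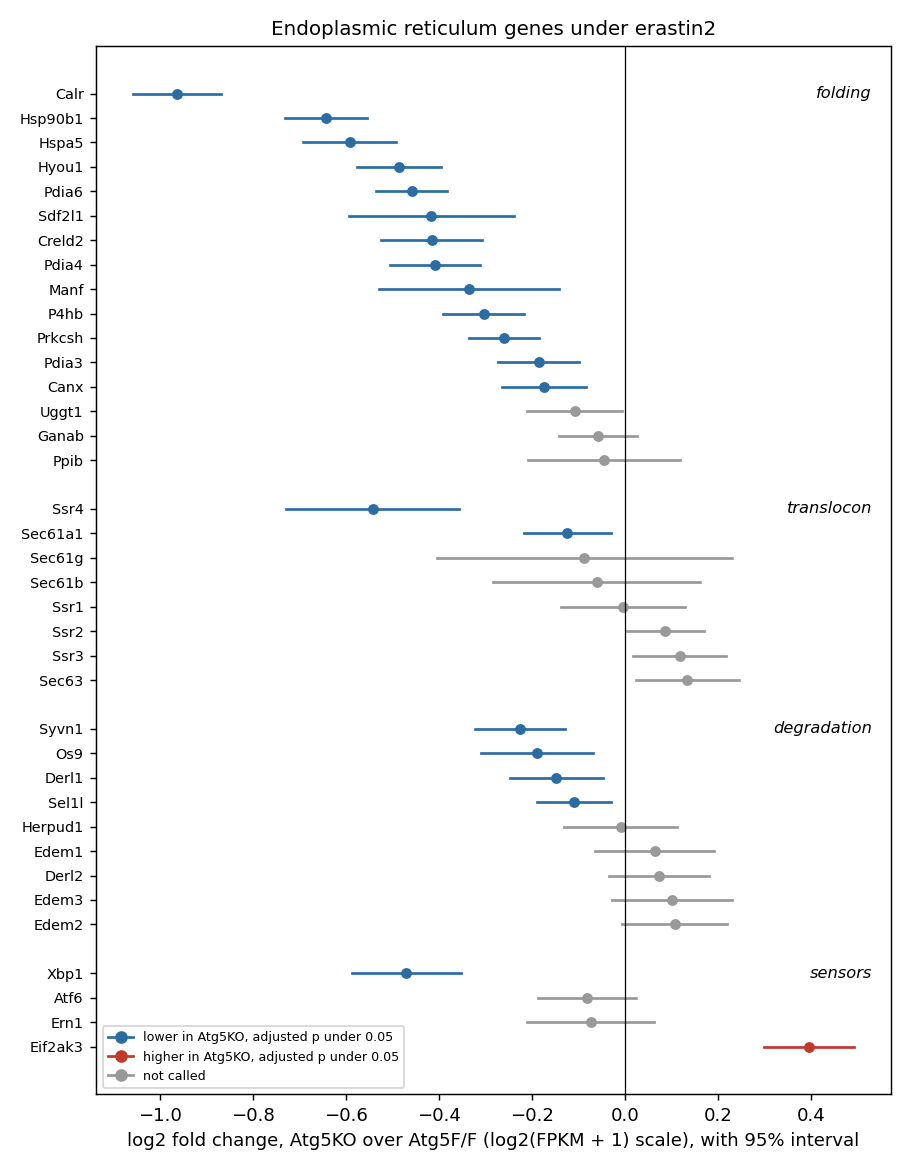
Each point is the log2 fold change of a tested member, KO-labelled over F/F-labelled libraries on the log2(FPKM + 1) scale (n = 3 each), with its 95% interval from limma, grouped by role. The folding genes lie left of 0, from -0.96 for Calr to -0.05 for Ppib; the other roles straddle 0, with Ssr4 and Xbp1 far to the left and Eif2ak3 at 0.40 on the right.

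Among the folding genes, 13 of 16 were lower and 0 were higher. The remaining 3 (Uggt1, Ganab and Ppib) were not called, and the median log2 fold change of the 16 was -0.37. The summed level of the 16 genes was 1523, 1581 and 1524 FPKM in KO-labelled replicates 1 to 3, against 2104, 2115 and 2115 FPKM in F/F-labelled replicates 1 to 3. The groups did not overlap, and the 6 libraries counted 252 to 28178 reads for any gene of this role. The number of lower folding genes was 12 to 14 in the 16 other settings tried.

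The largest fall was that of Calr (chromosome 8, 84841850 to 84846934 in GRCm38), which encodes calreticulin, the soluble lectin chaperone that also buffers ER calcium. Its level was 203, 216 and 208 FPKM in KO-labelled libraries and 403, 411 and 410.4 FPKM in F/F-labelled libraries. Every KO-labelled value was far below every F/F-labelled value. The mean fell by 48.8% to 209.0 ± 6.5 FPKM in KO-labelled libraries, against 408 ± 4.61 FPKM in F/F-labelled ones (SD, n = 3 each; log2 fold change -0.96, SE 0.0419, limma adjusted p = 2.1e-06). Of the 2073 genes lower in the whole table, 113 were lowered at least as much as Calr, itself included.

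Canx encodes calnexin, the membrane-bound counterpart of calreticulin. It had 142, 141 and 139 FPKM in KO-labelled and 165, 154 and 158 FPKM in F/F-labelled libraries, a fall by 0.17 on the log2 scale (SE 0.0397, limma adjusted p = 0.0088). That call was lost with quantile normalization (-0.10, limma adjusted p = 0.067). The ratio of Calr to Canx FPKM was 1.49 ± 0.0513 in KO-labelled and 2.58 ± 0.12 in F/F-labelled libraries (SD, n = 3 each; exact two-sided permutation p = 0.1, the lowest a design of this size allows). This ratio was chosen after the values were seen.

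The genes of the Hsp70 chaperone BiP and the Hsp90 chaperone GRP94 were lower as well. Hspa5, which encodes BiP, had 236, 246 and 246 FPKM in KO-labelled libraries and 359, 380.2 and 359 FPKM in F/F-labelled libraries (log2 fold change -0.59, SE 0.044, limma adjusted p = 2.5e-05). Hsp90b1, which encodes GRP94, had 119, 125 and 127 FPKM in KO-labelled and 194, 193 and 195 FPKM in F/F-labelled libraries (-0.64, SE 0.0388, limma adjusted p = 8.0e-06). In neither gene did the groups overlap, and the means fell by 33.7% for Hspa5 and by 36.1% for Hsp90b1. In FPKM, which is per length, Hspa5 stood above Calr in each KO-labelled library and below it in each F/F-labelled library. Exons of Hsp90b1 share 10.3% of their bases with a pseudogene on the opposite strand, so without the counting's strand setting a small part of its reads is uncertain.

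The members Hyou1, Sdf2l1, Creld2 and Manf were lower too. Hyou1, which exchanges the nucleotide of BiP, had 52.0, 49.6 and 50.1 FPKM in KO-labelled and 68.5, 72.1 and 73.2 FPKM in F/F-labelled libraries (-0.49, SE 0.0398). Sdf2l1, which joins J-domain partners of BiP, had 12.7, 13.9 and 13.1 FPKM in KO-labelled and 15.8, 19.9 and 18.4 FPKM in F/F-labelled libraries (-0.42, SE 0.078). The stress-inducible luminal protein gene Creld2 had 23.9, 24.1 and 23.0 FPKM in KO-labelled and 30.1, 32.2 and 33.6 FPKM in F/F-labelled libraries (-0.42, SE 0.0474). These 3 genes were separated between groups in every library, with limma adjusted p from 4.2e-05 to 0.0034. Manf, which encodes a BiP-binding protein that can be secreted, had 30.2, 32.9 and 25.2 FPKM in KO-labelled and 37.6, 35.3 and 38.7 FPKM in F/F-labelled libraries (-0.34, SE 0.0854, limma adjusted p = 0.014). It was not called without F/F-labelled replicate 3 (-0.31, limma adjusted p = 0.052) and stood at -0.23 without KO-labelled replicate 3, its lowest value.

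All 4 disulfide isomerase genes among the members were lower. Pdia6 had 57.8, 59.5 and 59.1 FPKM in KO-labelled and 80.6, 82.0 and 80.8 FPKM in F/F-labelled libraries (-0.46, SE 0.0335). Pdia4 had 38.3, 41.6 and 40.2 FPKM in KO-labelled and 55.3, 52.4 and 52.7 FPKM in F/F-labelled libraries (-0.41, SE 0.0426). P4hb, the classical protein disulfide isomerase, had 138, 144 and 138 FPKM in KO-labelled and 170.5, 177 and 172 FPKM in F/F-labelled libraries (-0.30, SE 0.0379). The fall was smaller for Pdia3, which encodes ERp57, the isomerase that works with calnexin and calreticulin: 153, 156 and 153 FPKM in KO-labelled and 179, 169.7 and 177 FPKM in F/F-labelled libraries (-0.19, SE 0.0385, limma adjusted p = 0.0055). Limma adjusted p-values were 2.3e-05, 1.5e-04 and 4.0e-04 for Pdia6, Pdia4 and P4hb. Relatives of the isomerases among the other folding genes described below went both ways. Dnajc10 (0.19), Tmx3 (0.18) and Tmx4 (0.18) were higher, and Tmx2 (-0.20) and Erp29 (-0.14) were lower. Pdia5, Txndc5, Txndc11, Txndc12, Erp44 and Tmx1 were not called.

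Of the 3 members of the glucose-trimming cycle, which decides how long a glycoprotein stays with the lectins, 1 was lower and 2 were not called. Prkcsh, the noncatalytic subunit of glucosidase II, had 84.9, 86.9 and 85.9 FPKM in KO-labelled and 102, 103 and 103 FPKM in F/F-labelled libraries (-0.26, SE 0.033, limma adjusted p = 4.4e-04). Ganab, the catalytic subunit of the same enzyme, had 88.6, 87.3 and 87.6 FPKM in KO-labelled and 92.7, 88.1 and 93.5 FPKM in F/F-labelled libraries, and was not called (-0.06, 95% interval -0.14 to 0.03). Uggt1, which puts glucose back on misfolded glycoproteins, averaged 18.9 ± 0.346 FPKM in KO-labelled and 20.5 ± 0.955 FPKM in F/F-labelled libraries (SD, n = 3 each), without overlap but not called (-0.11, limma adjusted p = 0.086). It was called in 5 of 16 other settings, among them the fit without F/F-labelled replicate 2 (-0.14, limma adjusted p = 0.041) and the one with the gene length trend removed (-0.19, limma adjusted p = 0.016). Ppib, the prolyl isomerase cyclophilin B, had 125, 138 and 109.9 FPKM in KO-labelled and 129.7, 126 and 127 FPKM in F/F-labelled libraries and was not called (-0.05, 95% interval -0.21 to 0.12). Exons of Ppib share 25% of their bases with Snx22 on the opposite strand, so its level is uncertain.

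**Figure D2:**
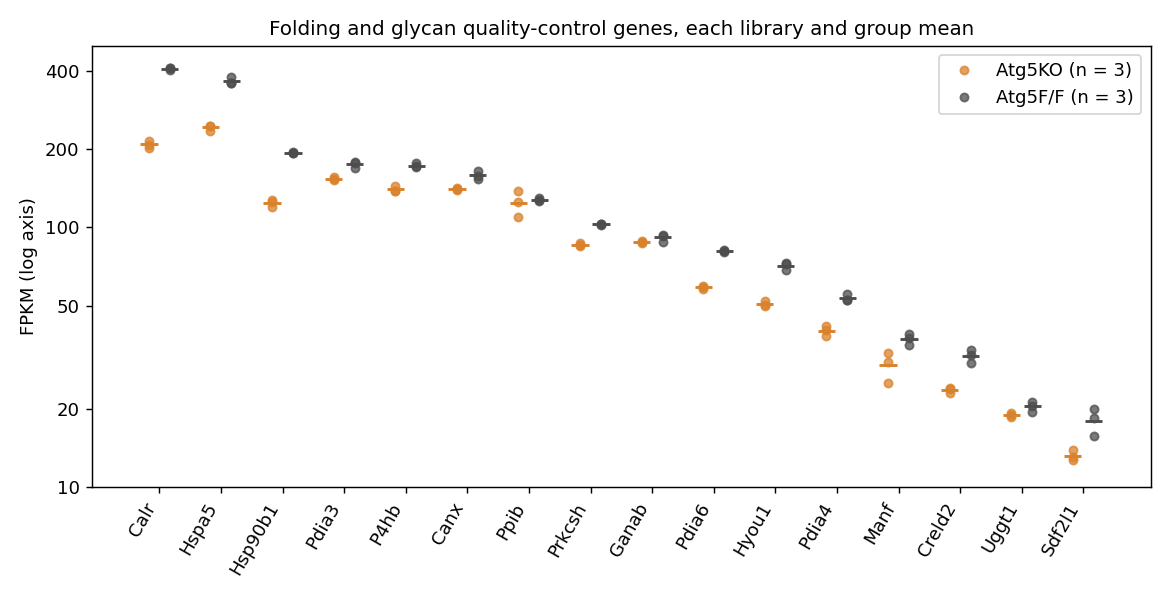
FPKM (log axis) of the 16 folding and glycan quality-control genes in each library, KO-labelled left and F/F-labelled right for each gene, ordered by the F/F-labelled mean; bars are group means (n = 3 each). The groups are widest apart at Calr (209.0 against 408 FPKM) and close together at Ganab and Ppib.

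Many genes of the unfolded protein response carry the ER stress response element (ERSE), the letters CCAAT and CCACG separated by 9 bases, which ATF6 and XBP1 can bind together with the CCAAT factor NF-Y. RefSeq promoter windows (GRCm38.p6, 250 bases before to 50 after the start) were found for 32 of the 38 members. An exact ERSE on either strand was present in the windows of 8 of these 32 members, or 25.0%, and of 37 of all 27025 genes with a window, or 0.137%. By role it was present in 6 of 14 folding, 0 of 6 translocon, 2 of 9 degradation and 0 of 3 sensor genes. Among tested genes with a window it was present in 15 of 8748, or 0.171%. All 7 tested members that held it were lower in KO-labelled libraries, beside 17.9% of all tested genes. All of them but Syvn1 were folding genes, of which 81.2% were lower, so element and role cannot be told apart here. Of the 16 lower members with a window 7 held the element, against 0 of the 14 uncalled ones. Outside the members, 8 tested genes held it, of which 3 were lower, 2 higher and 3 not called. A link between the element and the change was not tested. The members were chosen as ER genes and include genes of this response, so their higher share is not an independent finding. The 9 sites in the 8 members are shown next, each read along the element, with CCAAT and CCACG in capitals:

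Hspa5 (chr2:34772025-34772043, plus strand, 65 bases before the start): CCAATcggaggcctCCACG
Calr (chr8:84847075-84847093, plus strand, 162 bases before the start): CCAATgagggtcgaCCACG
Derl3 (chr10:75893242-75893260, minus strand, 156 bases before the start): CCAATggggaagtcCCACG
Hsp90b1 (chr10:86705638-86705656, minus strand, 212 bases before the start): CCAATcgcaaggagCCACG
Hsp90b1 (chr10:86705533-86705551, plus strand, 107 bases before the start): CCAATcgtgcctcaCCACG
Canx (chr11:50325800-50325818, minus strand, 145 bases before the start): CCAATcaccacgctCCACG
Pdia6 (chr12:17266491-17266509, plus strand, 98 bases before the start): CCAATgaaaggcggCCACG
Creld2 (chr15:88819520-88819538, minus strand, 126 bases before the start): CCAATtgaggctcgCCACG
Syvn1 (chr19:6046532-6046550, plus strand, 44 bases before the start): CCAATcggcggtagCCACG

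A match describes these letters and does not show that a factor was bound. Neighbouring bases between the conserved blocks differed from gene to gene. The whole windows of Hspa5 and Calr, the members with the highest FPKM in both groups, are given next, read along the gene, with the blocks of the element in capitals; in Calr the element lies on the opposite strand, so its blocks appear as their reverse complements:

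Hspa5 promoter (chr2:34771840-34772139, plus strand): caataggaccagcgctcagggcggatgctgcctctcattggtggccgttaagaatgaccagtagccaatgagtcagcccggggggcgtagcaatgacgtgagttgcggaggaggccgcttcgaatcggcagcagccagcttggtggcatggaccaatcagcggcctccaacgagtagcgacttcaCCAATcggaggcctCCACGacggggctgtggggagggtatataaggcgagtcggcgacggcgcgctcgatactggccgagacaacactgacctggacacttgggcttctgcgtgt
Calr promoter (chr8:84846882-84847181, minus strand): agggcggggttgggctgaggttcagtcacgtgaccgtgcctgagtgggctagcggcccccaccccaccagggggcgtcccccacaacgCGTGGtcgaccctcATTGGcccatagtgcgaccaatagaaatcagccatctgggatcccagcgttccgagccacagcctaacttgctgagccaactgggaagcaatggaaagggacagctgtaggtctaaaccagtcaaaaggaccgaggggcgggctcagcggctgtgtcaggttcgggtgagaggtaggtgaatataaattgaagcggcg

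The shorter ERSE-II element (ATTGG and CCACG separated by 1 base) was found in 1 member, Herpud1, and in 12 of the 27025 genes, or 0.0444%. The core of the unfolded protein response element, TGACG directly followed by TGG, which XBP1 can bind, was found in 0 of 32 members and in 193 of all genes, or 0.714%. The Herpud1 site is shown with its conserved blocks in capitals, since this gene was not called:

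Herpud1 (chr8:94386377-94386387, plus strand, 52 bases before the start): ATTGGgCCACG

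Of the 8 translocon genes, 2 were lower (Ssr4 and Sec61a1) and 0 were higher. The calls covered 25% of them, beside 39.2% of all tested genes, and 25% were lower, beside 17.9%. The other 6 were not called, and the median log2 fold change was -0.03. Their summed level was 468 to 508 FPKM in KO-labelled and 497 to 507 FPKM in F/F-labelled libraries, which overlap. The number of called translocon genes ranged from 1 to 4 over the other settings. It was 1 without KO-labelled replicate 1 or 3 or F/F-labelled replicate 2 or 3, and 3 without KO-labelled replicate 2, where Sec63 (0.17, limma adjusted p = 0.034) and Ssr3 (0.15, limma adjusted p = 0.043) were higher. With quantile normalization 1 was lower and 2, Ssr2 and Ssr3, were higher.

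Ssr4 (chromosome X, 73787028 to 73790830), the delta subunit of the translocon-associated protein complex TRAP, had 53.2, 51.7 and 41.5 FPKM in KO-labelled and 71.2, 72.3 and 70.0 FPKM in F/F-labelled libraries. All KO-labelled values were below all F/F-labelled values (log2 fold change -0.54, SE 0.0821, limma adjusted p = 0.0011). Without KO-labelled replicate 3, the lowest library, the log2 fold change was -0.43 (limma adjusted p = 1.4e-04). The other subunits of the same complex were not called. Ssr1 had 20.3, 18.0 and 18.4 FPKM in KO-labelled and 19.9, 17.8 and 19.1 FPKM in F/F-labelled libraries (95% interval of the log2 fold change -0.14 to 0.13). Ssr2 averaged 93.5 ± 2.55 FPKM in KO-labelled and 88.0 ± 1.35 FPKM in F/F-labelled libraries (SD, n = 3 each). Ssr3 averaged 153 ± 5.33 FPKM in KO-labelled and 141 ± 4.94 FPKM in F/F-labelled libraries. Their KO-labelled values all lay above the F/F-labelled ones, with log2 fold changes of 0.09 and 0.12 and limma adjusted p = 0.092 and 0.062. Exons of Ssr2 share 12.8% of their bases with a pseudogene on the opposite strand.

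Sec61a1, the pore-forming subunit of the channel, had 82.0, 84.2 and 83.4 FPKM in KO-labelled and 88.1, 95.3 and 89.1 FPKM in F/F-labelled libraries (-0.12, SE 0.0407, limma adjusted p = 0.039). It kept its call in 8 of 16 other settings, and lost it without any single library other than F/F-labelled replicate 1 (-0.14 to -0.09, limma adjusted p from 0.064 to 0.11). The small subunits were not called. Sec61b had 64.4, 64.4 and 48.4 FPKM in KO-labelled and 62.2, 59.7 and 61.6 FPKM in F/F-labelled libraries (95% interval -0.28 to 0.16). Sec61g, read 67 to 159 times per library, had 8.33, 6.14 and 4.94 FPKM in KO-labelled and 6.80, 6.45 and 7.19 FPKM in F/F-labelled libraries, with the wide 95% interval of -0.41 to 0.23. Sec63, the J-domain protein that recruits BiP to the channel, averaged 25.4 ± 1.21 FPKM in KO-labelled and 23.1 ± 0.955 FPKM in F/F-labelled libraries, without overlap and not called (0.13, limma adjusted p = 0.057).

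Short members tended to have lower values in KO-labelled replicate 3 than in the other KO-labelled libraries. All 7 tested members with an implied gene length under 1500 bases had a lower value there than the mean of KO-labelled replicates 1 and 2, against 13 of the 30 longer ones. Sec61g, 779 bases long, was at 68.3% of that mean, Sec61b (552 bases) at 75.1%, Ssr4 (804 bases) at 79.1% and Ppib (960 bases) at 83.7%. The other 3 short members were closer to it, with Creld2 at 95.8%, Ssr2 at 96.4% and Sdf2l1 at 98.5%; in Sdf2l1 the value of KO-labelled replicate 3 lay above that of replicate 1. Over all 11559 tested genes, each library's deviation from the gene mean had a Spearman rho with length of 0.344 in this library, the highest of the 6, and of 0.115 and 0.0395 in KO-labelled replicates 1 and 2, against -0.228 to -0.161 in F/F-labelled libraries; genes are not independent replicates. Without this library the number of lower members was 17. With the length trend removed from every library it was 22, with Uggt1 and Atf6 gained and no lower call lost, and 2 members were higher, Eif2ak3 and Ssr2.

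**Figure D3:**
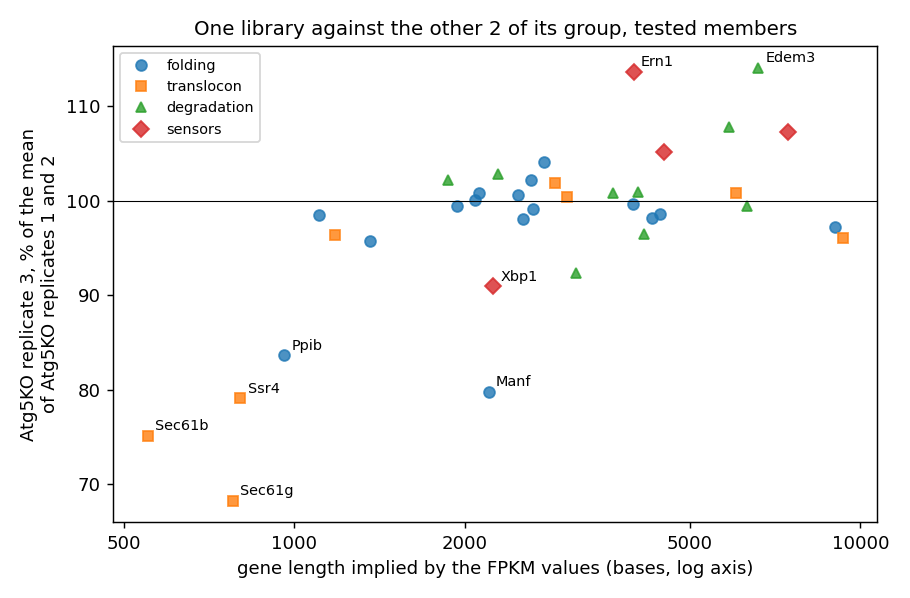
The level in KO-labelled replicate 3 as a percentage of the mean of KO-labelled replicates 1 and 2 (y axis), against the gene length implied by the FPKM values (bases, log axis), for the 37 tested members, marked by role. The shortest genes lie lowest, down to 68.3% for Sec61g, and the long genes scatter around 100%; Manf, at 79.8% with 2206 bases, is a low point outside the short genes.

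Of the 9 tested degradation genes, 4 were lower and 0 were higher. The calls covered 44.4% of them, near the 39.2% of all tested genes, and 44.4% were lower, beside 17.9%. The other 5 were not called, and the median log2 fold change was -0.01. The 4 lower genes belong to the retrotranslocation complex around the ligase, but so do Herpud1 and Derl2, which were not called (log2 fold changes -0.01 and 0.07). Syvn1, which encodes the ligase HRD1, had 18.3, 19.1 and 18.8 FPKM in KO-labelled and 21.2, 22.4 and 22.7 FPKM in F/F-labelled libraries (-0.23, SE 0.0425, limma adjusted p = 0.0035). Os9, a lectin that delivers misfolded glycoproteins to it, had 32.4, 33.99 and 33.5 FPKM in KO-labelled and 35.4, 40.8 and 38.5 FPKM in F/F-labelled libraries (-0.19, SE 0.0529, limma adjusted p = 0.021). Derl1, a derlin that helps form the exit channel, had 37.0, 36.2 and 33.8 FPKM in KO-labelled and 39.1, 40.7 and 38.9 FPKM in F/F-labelled libraries (-0.15, SE 0.0439, limma adjusted p = 0.027). Sel1l, the scaffold of the ligase, had 37.6, 36.2 and 36.7 FPKM in KO-labelled and 39.2, 40.2 and 40.0 FPKM in F/F-labelled libraries (-0.11, SE 0.035, limma adjusted p = 0.036).

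Syvn1 kept its call in all 16 other settings. The groups did not overlap for any of these 4 genes, where 23.2% of all tested genes were lower without overlap. The number of lower degradation genes was 1 without F/F-labelled replicate 2 or 3, 2 without KO-labelled replicate 1, KO-labelled replicate 3 or F/F-labelled replicate 1, and 3 without KO-labelled replicate 2. Sel1l lost its call when any single library was left out (-0.12 to -0.10, limma adjusted p from 0.053 to 0.12). Derl1 lost it without KO-labelled replicate 3 or any F/F-labelled library (-0.16 to -0.11, limma adjusted p from 0.053 to 0.08). Os9 lost it without KO-labelled replicate 1 or F/F-labelled replicate 2 or 3 (-0.18 to -0.14, limma adjusted p from 0.058 to 0.069).

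The uncalled degradation genes lay near or slightly above their F/F-labelled levels. Herpud1, a stress-inducible membrane protein of the HRD1 complex, had 134, 136 and 138 FPKM in KO-labelled and 127, 147 and 137 FPKM in F/F-labelled libraries (log2 fold change -0.01, 95% interval -0.13 to 0.11). The mannosidase-like Edem1, Edem2 and Edem3, which mark glycoproteins for disposal, stood at 0.06, 0.11 and 0.10 on the log2 scale, with limma adjusted p from 0.12 to 0.40. Their group means ran from 11.3 to 17.4 FPKM in KO-labelled and from 10.8 to 16.2 FPKM in F/F-labelled libraries. Derl2 averaged 16.2 ± 0.841 FPKM in KO-labelled and 15.3 ± 0.215 FPKM in F/F-labelled libraries (SD, n = 3 each, log2 fold change 0.07, limma adjusted p = 0.25). Its KO-labelled values all lay above its F/F-labelled ones, as in 28.7% of all tested genes. Derl3 fell under the level needed for testing, with 0.228, 0.487 and 0.43 FPKM in KO-labelled and 0.175, 0.241 and 0.235 FPKM in F/F-labelled libraries, which rest on 5 to 11 reads.

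Of the 3 sensor genes, 1 was higher and 2 were not called, and Xbp1 was lower. The calls covered 50% of these 4 genes, near the 39.2% of all tested genes, of which 21.3% were higher and 17.9% lower. Eif2ak3 (chromosome 6, 70844515 to 70905245), which encodes the kinase PERK, was the member called higher. It had 37.2, 39.2 and 40.2 FPKM in KO-labelled and 30.3, 28.5 and 29.1 FPKM in F/F-labelled libraries. Every KO-labelled value exceeded every F/F-labelled one, and the mean was 32.6% higher (log2 fold change 0.40, SE 0.0427, limma adjusted p = 1.8e-04).

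Xbp1 (chromosome 11, 5520659 to 5525893), the transcription factor whose messenger RNA IRE1 splices, had 27.8, 27.4 and 25.1 FPKM in KO-labelled and 36.2, 36.8 and 39.4 FPKM in F/F-labelled libraries. The groups did not overlap, and the mean fell by 28.5% (-0.47, SE 0.0513, limma adjusted p = 1.9e-04). A gene-level value holds the spliced and the unspliced form together, so the splicing was not measured. Ern1, which encodes IRE1alpha, had 10.4, 10.8 and 12.1 FPKM in KO-labelled and 11.3, 12.1 and 11.7 FPKM in F/F-labelled libraries and was not called (-0.07, 95% interval -0.21 to 0.06). Atf6 had 29.3, 27.9 and 30.7 FPKM in KO-labelled and 30.5, 32.3 and 30.3 FPKM in F/F-labelled libraries and was not called either (-0.08, 95% interval -0.19 to 0.02), although it was with the length trend removed (-0.16, limma adjusted p = 0.015). Eif2ak3 and Xbp1 kept their calls in all 16 other settings, at 0.35 to 0.43 and at -0.50 to -0.43.

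**Figure D4:**
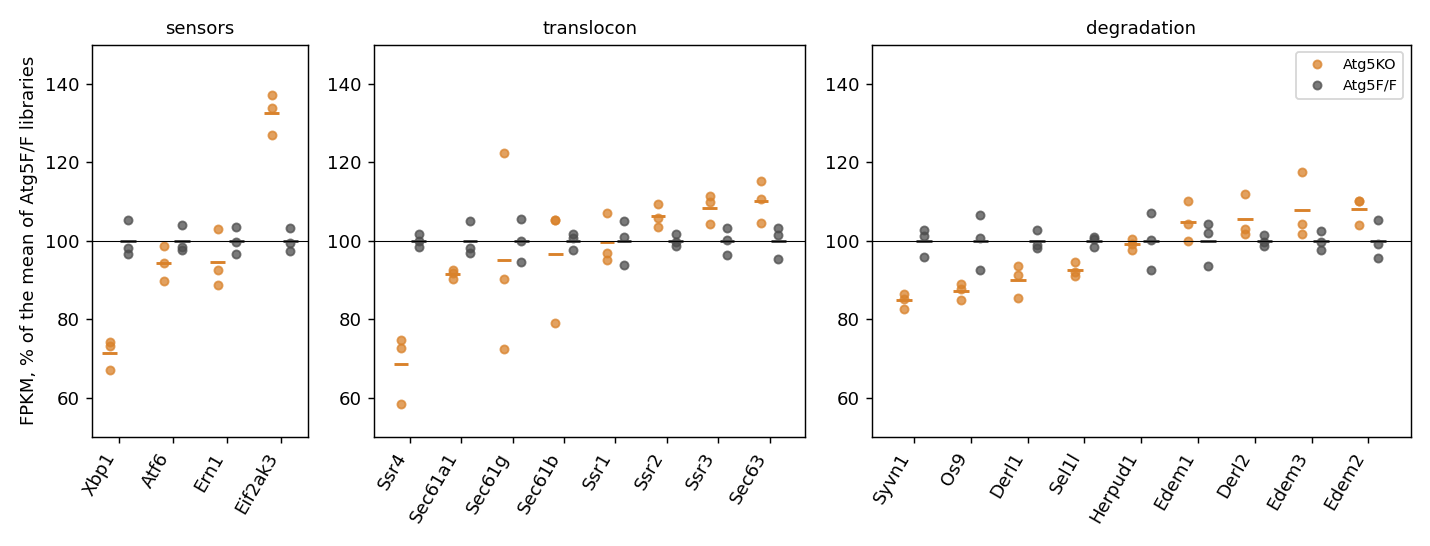
Each library's FPKM as a percentage of the F/F-labelled mean of the same gene (y axis), for the sensors, the translocon genes and the tested degradation genes; KO-labelled points stand left of F/F-labelled ones and bars are group means (n = 3 each). KO-labelled Eif2ak3 lies above and Xbp1 and Ssr4 lie below all their F/F-labelled values, while the KO-labelled points of Sec61g and Sec61b are widely spread.

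Other genes of the same compartment, from 5 lists of 134 genes in all, were lower in 29 and higher in 21 of 130 tested cases, with a median log2 fold change of -0.03. The calls covered 38.5% of these genes, beside 39.2% of all tested genes, and 22.3% were lower, beside 17.9%. Of 39 other folding genes tested, 10 were lower and 8 higher (median -0.02). The calls covered 46.2% of them, and 25.6% were lower. Ppic, cyclophilin C, averaged 126 ± 3.99 FPKM in KO-labelled and 86.1 ± 4.64 FPKM in F/F-labelled libraries (0.55, SE 0.0474). The prolyl isomerase gene Fkbp7 averaged 7.18 ± 0.19 FPKM in KO-labelled and 4.85 ± 0.832 FPKM in F/F-labelled libraries (0.49, SE 0.0975). The prolyl isomerase gene Fkbp2 averaged 20.8 ± 1.13 FPKM in KO-labelled and 29.8 ± 1.24 FPKM in F/F-labelled libraries (-0.50, SE 0.0504). Mogs, the glucosidase that takes off the outermost glucose before glucosidase II acts, averaged 17.6 ± 0.558 FPKM in KO-labelled and 23.9 ± 0.722 FPKM in F/F-labelled libraries (-0.42, SE 0.0428). Limma adjusted p-values of these 4 genes ran from 5.6e-05 to 0.0044 (SD, n = 3 each).

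Of 29 further genes of translocation and N-glycosylation, 6 were lower and 2 higher (median -0.01). The calls covered 27.6% of them, 42.4% of the further degradation genes and 33.3% of the further stress response genes, beside 39.2% of all tested genes. In these lists 20.7%, 21.2% and 23.8% were lower, beside 17.9%. The oligosaccharyltransferase subunit genes Rpn2 (-0.33) and Ost4 (-0.17) and the signal peptidase subunit gene Spcs3 (-0.28) were lower, whereas Sec62, a partner of Sec63 that is also an ER-phagy receptor, was higher (0.26, limma adjusted p = 0.0048). Of 33 further degradation genes, 7 were lower and 7 higher (median -0.06), among them Erlin1 (-0.32), Aup1 (-0.26), the ligase gene Rnf5 (-0.22) and the lectin gene Erlec1 (0.21). Of 21 further stress response genes, 5 were lower and 2 higher (median -0.03). Wfs1, the ER membrane protein wolframin, averaged 46.6 ± 0.25 FPKM in KO-labelled and 79.7 ± 3.15 FPKM in F/F-labelled libraries (SD, n = 3 each; -0.76, SE 0.039, limma adjusted p = 3.8e-06). Ddit3, which encodes CHOP, a transcription factor downstream of PERK, averaged 102 ± 4.19 FPKM in KO-labelled and 133 ± 3.5 FPKM in F/F-labelled libraries (-0.38, SE 0.0428, limma adjusted p = 2.3e-04), and the ATF6 relative Atf6b was lower as well (-0.33). Creb3l1, an ER-bound transcription factor, was higher at a low level, with 1.98 ± 0.296 FPKM in KO-labelled and 1.21 ± 0.05 FPKM in F/F-labelled libraries (0.43).

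Of the 9 ER-phagy receptors, which hand pieces of ER to autophagosomes, 3 were higher and 1 was lower (median -0.03). The calls covered 44.4% of them, beside 39.2% of all tested genes. Calcoco1 (0.38), Sec62 (0.26) and Fam134c (0.14) were higher, and Fam134b was lower, with 36.8 ± 2.85 FPKM in KO-labelled and 43.5 ± 0.783 FPKM in F/F-labelled libraries (SD, n = 3 each; -0.24, limma adjusted p = 0.0084).

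**Figure D5:**
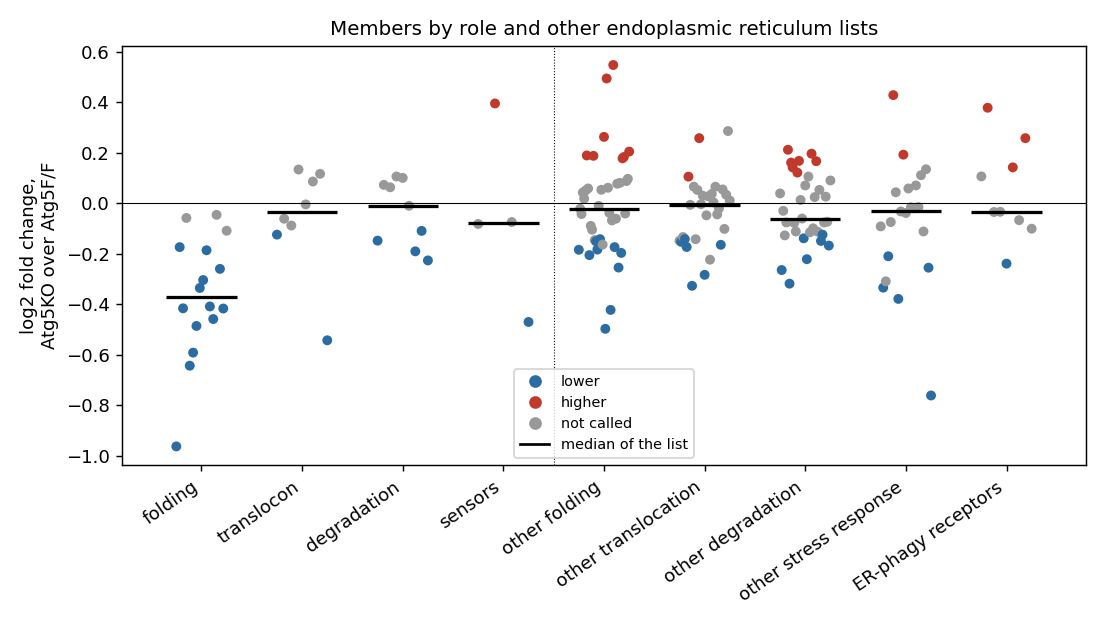
Log2 fold changes (KO-labelled over F/F-labelled, n = 3 each) of the tested members by role, left of the dotted line, and of the 5 other ER lists, right of it; each point is a gene, coloured by its limma call at adjusted p under 0.05, and the black bars are list medians. The folding members have a median of -0.37, and the medians of all other lists lie between -0.08 and -0.01.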

How the data were processed

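Messenger RNA of 6 libraries (3 Atg5KO, 3 Atg5F/F) was analysed from the FPKM values the authors deposited. Libraries were made with a stranded Illumina kit, per the labels' protocols. Per the submitters' processing notes, the tools were HISAT2 2.1.0, featureCounts 1.4.6, Trimmomatic 0.35, edgeR and bcl2fastq, and the builds mm10 and GRCm38. Which annotation, strand setting and filters were used is not given in the sources used here. All 6 libraries carry the same batch label. Steps of the FPKM values gave whole reads (within 0.001 reads) and a single length per gene for all 18296 genes above 0, so the reads and library totals stated are recovered ones. The members, roles, lists and tests were chosen with earlier results of these data known.

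Limma 3.58.1 in R 4.3.3 (lmFit, eBayes with a variance trend) compared KO-labelled with F/F-labelled libraries on log2(FPKM + 1). It used the 11559 genes that reached 1 FPKM in 3 or more libraries, and Benjamini-Hochberg adjustment ran over all of them; the fit was tested on simulated data. FPKM + 1 understates changes of low genes. Called members and all sensors are named. Of each other list, up to 4 called genes with the largest change are named. Relatives of the disulfide isomerases and genes of the ER membrane complex are named in addition. Lists are described by counts and medians, without a set test. Replicates differed by more than sampling noise (chi-square per degree of freedom 2.94 to 5.86 within groups, where sampling noise gives about 1), so none was taken as a duplicate. Alternatives left out each library in turn or used a replicate block, 0.1 as the pseudocount, a 5 FPKM filter or no filter, median-ratio scaling, quantile normalization, no variance trend, robust eBayes, voom on the recovered reads, and removal of each library's loess trend (span 0.5) on length. The authors' deposited log2 fold change and FDR (an adjusted p-value) were set beside the calls, and their ranking score was not used. Gene coordinates and exon overlaps are from GENCODE vM21 (GRCm38), promoter sequences from RefSeq (GRCm38.p6). Python 3.11.15, pandas 2.3.3, numpy 2.4.6, scipy 1.17.1 and matplotlib 3.10.9 were used.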

Additional observations from a re-analysis of the deposited data

How the results depend on the processing

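No member changed the sign of a call in the 16 other settings, and 15 of the 21 called members kept their call in all of them; Canx, Manf, Sec61a1, Sel1l, Derl1 and Os9 lost it in at least 1, and the cause was not tested. Over all genes 4530 were called, and 3265 to 4122 with a library left out. Of the members 21 were called, and 16 to 21 with a library left out; for folding genes these numbers were 13 and 12 to 14, for translocon genes 2 and 1 to 3, and for degradation genes 4 and 1 to 3. The sensors had 2 calls whichever library was left out. The voom fit on recovered reads called 4997 genes. The members' median log2 fold change of -0.12 was -0.17 to -0.13 with a library left out and -0.18 with the length trend removed. Translocon calls numbered 1 without the filter and 1 without the variance trend, and degradation calls 2 without the variance trend. With the replicate block, translocon calls numbered 4 (Sec63 and Ssr3 gained, higher), member calls 22, and calls over all genes 4668. The labels tie the replicate numbers to no animal, day or separate batch; same-numbered libraries' deviations correlated at 0.163, 0.0752 and -0.0227, and 4 of 6 libraries correlated best with their own number, so the pairing was not used. With median-ratio scaling the median of all genes was -0.00, against 0.02 as reported. The number of libraries, 3 in each group, limits what small differences can be called. Derl3 rests on 5 to 11 reads per library and Sec61g on 67 to 159.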

Other observations

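In the authors' deposited table, 21 members were lower and 1 was higher at an FDR under 0.05, and the calls differed from those above for 1 member, Uggt1 (deposited log2 fold change -0.15, FDR 0.0089).

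Among tested genes outside the members, 8 held an exact ERSE in their promoter window, of which 3 were lower, 2 higher and 3 not called. The lower ones were Alg12, a mannosyltransferase that builds the N-glycan precursor (10.0 FPKM in KO-labelled and 12.2 FPKM in F/F-labelled libraries, log2 fold change -0.26, SE 0.0484), Xlr3b (-0.99) and Acnat2 (-0.69). The higher ones were Zfp57 (0.27) and Spats2l (0.30), and Dnajc3, Pan2 and Hnrnpa3 were not called. All 8 are given because the search found them, and no other rule chose them.

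Some inducible genes of the unfolded protein response were not called; they were picked after their values were seen. Dnajb9, a J-domain partner of BiP, averaged 38.2 ± 3.27 FPKM in KO-labelled and 37.6 ± 1.39 FPKM in F/F-labelled libraries (SD, n = 3 each; log2 fold change 0.02, SE 0.0617). Dnajb11, another such partner, averaged 32.3 ± 0.766 FPKM in KO-labelled and 31.3 ± 0.47 FPKM in F/F-labelled libraries (0.04, SE 0.0366). Dnajc3 averaged 17.4 ± 0.66 FPKM in KO-labelled and 16.7 ± 0.294 FPKM in F/F-labelled libraries (0.06, SE 0.0433). The lowest limma adjusted p of these 3 genes was 0.31. Atf4, the transcription factor translated when eIF2alpha is phosphorylated, averaged 482 ± 16.2 FPKM in KO-labelled and 514 ± 6.92 FPKM in F/F-labelled libraries, without overlap and not called (-0.09, SE 0.047, limma adjusted p = 0.16).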
